A study of Mus musculus with 98 samples.

Results

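Chromosomal ends made by the RAG recombinase at a recombination substrate were compared between mouse pre-B cells with and without 53BP1. The members are the 4 deposited tables of this break that come from cells lacking DNA ligase IV alone or ligase IV and 53BP1. They pool 12 of the 49 libraries of the series (24 of 98 read files). They were chosen by genotype and break and not by a measured value, but with earlier results of these data known. In the assay, a single-stranded DNA ligase closes each broken end into a hairpin, bisulfite opens the hairpin for PCR, and paired reads show where each strand stopped. Each table gives the read count of every end structure, which is a pair of stops, 1 for the strand with the 5' terminus and 1 for the strand with the 3' terminus (5' strand and 3' strand below).

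All 4 lines were Abelson-transformed pre-B cells, arrested in G1 according to the series design, and all lacked ligase IV. The genotypes thus differ in 53BP1 as labelled, but they are also different lines. The group with 53BP1 held LigaseIV -/- line A (labelled CJ 1) and line B (CJ 7), called Lig4-/- below. The group without it held Ligase IV -/- 53BP1 -/- line B (CJ 6) and line C (no CJ number), called 53BP1-deficient below. Shared letters do not mark shared lines. The tables hold no measure of either protein, so the genotypes rest on the labels. The titles give 48 h for all but 53BP1-deficient line C, for which they give no time. An unexplained tag, shNT, occurs once in each genotype, in the titles of 53BP1-deficient line C and of Lig4-/- line B. Sequencing run 4 held all lines except 53BP1-deficient line C, which was in run 6, and the title of 1 of its 3 libraries also names an H2AX-deficient line, with a description that calls for sorting of the reads by primer.

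RAG cuts DNA at recombination signal sequences during assembly of antigen receptor genes, and leaves a coding end that is first closed as a hairpin and a blunt signal end. Non-homologous end joining, whose ligase is ligase IV, normally seals such breaks in G1. 53BP1 binds chromatin around a break and, with its partners, limits resection, the removal of nucleotides from the 5' strand that leaves a 3' single-stranded tail. The labels do not say which side of the substrate break was amplified, and no sequence of the substrate was among the files, so positions are given as nucleotides (nt) lost from the lowest position in the tables. A hairpin that was never opened would be read as an end without loss.

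The tables held 330683 reads for Lig4-/- line A, 128122 for Lig4-/- line B, 337917 for 53BP1-deficient line B and 127083 for 53BP1-deficient line C, counting structures with 2 reads or more. The table of 53BP1-deficient line C alone also listed structures with 1 read, 206 of them, which were left out. Since each table pools the 3 libraries of a line, the line was the replicate, and nothing in the labels says that the libraries of a line came from separate cultures. With 2 lines against 2, an exact permutation test cannot give a p below 0.33. Shares were therefore compared by two-sided Fisher's exact test on the reads of each of the 4 pairs of lines, with Benjamini-Hochberg adjustment over 36 tests of 9 classes. That test compares pools of reads, which as PCR products without molecular identifiers are not independent, so a class was called changed only if all pairs lay on the same side, all adjusted p were under 0.05 and the smallest gap between genotypes exceeded the largest gap within a genotype. Of the 9 classes, 6 were called. Intervals in parentheses are exact Clopper-Pearson 95% intervals and cover counting error only.

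Without 53BP1 the ends lay far inside the break. Ends cut back by at least 100 nt on the 5' strand (far ends) made up 17.5% of reads in Lig4-/- line A (17.4 to 17.6), 15.9% in Lig4-/- line B (15.7 to 16.1), 84.3% in 53BP1-deficient line B (84.2 to 84.4) and 86.5% in 53BP1-deficient line C (86.3 to 86.7). The genotypes did not overlap, and lines of a genotype lay close together. The share rose by 68.7 points, from 16.7% ± 1.17 to 85.4% ± 1.58 (SD, n = 2 lines each). The nearest lines of the genotypes were 66.8 points apart, and lines of 1 genotype at most 2.23 points. The difference was 66.8 points between the lines without the shNT tag and 70.6 points between those with it. All 4 adjusted p of Fisher's exact test were too small for a double-precision number. Ends past 10 nt, the wider class of resected ends, rose by 39.96 points, and 56.0% and 57.9% of Lig4-/- reads already lay in it, so the distance and not only the presence of loss separated the genotypes.

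Moderately shortened ends were nearly emptied. Ends that were 1 to 49 nt short on the 5' strand held 67.5% and 70.4% of reads in Lig4-/- lines A and B, and 4.69% and 1.74% in 53BP1-deficient lines B and C. Ends with 20 to 49 nt lost, 14.1% and 15.1% of Lig4-/- reads, held 2.44% in 53BP1-deficient line B and none of the listed structures in line C. By contrast, ends with 50 to 99 nt lost were almost equally frequent, at 7.77%, 7.61%, 8.87% and 10.4% in the same order of lines. There the nearest lines of the genotypes were 1.10 points apart and lines of 1 genotype up to 1.505 points. Ends between 100 and 150 nt inside held 8.27% ± 0.468 in Lig4-/- lines and 43.9% ± 13.6 in 53BP1-deficient lines (SD, n = 2 lines each). The large SD of the latter comes from 34.3% in line B and 53.6% in line C.

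Ends with 150 nt or more lost rose by 33.1 points, at 8.90% and 7.91% in Lig4-/- lines A and B, 50.01% in 53BP1-deficient line B (49.8 to 50.2) and 32.9% in line C. The 53BP1-deficient lines thus differed by 17.1 points, less than the 24.0 points to the nearer Lig4-/- line. When each table was taken without its leading structure, the call was lost, since the lines of a genotype then differed by 22.99 points and the smallest gap was 18.3 points. Among resected ends alone, loss from the 5' strand had a median of 45 nt in Lig4-/- line A, 38 nt in Lig4-/- line B, 150 nt in 53BP1-deficient line B and 137 nt in line C. The furthest structures had lost 206 or 207 nt from the 5' strand in every table. The 5' strand had lost 190 nt or more in 1.74% and 0.971% of reads of 53BP1-deficient lines B and C. The 3' strand stopped 200 to 209 nt inside in 0.00651% of line B and 3.95% of line C. Ends cut back past the measured window would not be listed, so these shares cannot tell how many lay beyond it. All shares and medians cover ends within the window only.

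**Figure D1:**
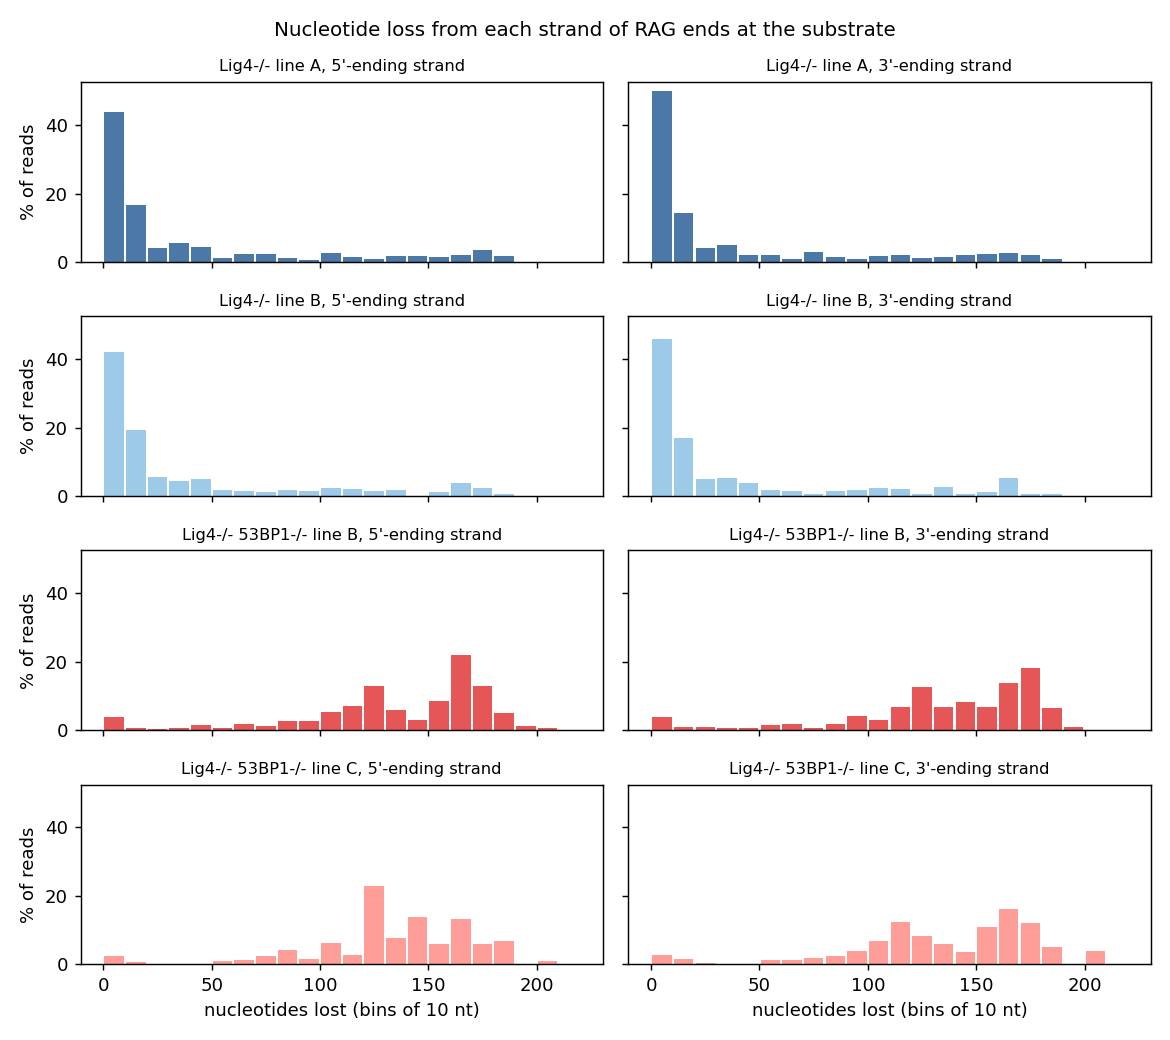
Percent of reads (vertical axis) by nucleotides lost, in bins of 10 nt (horizontal axis), for the 5' strand (left) and the 3' strand (right) of each line. Lig4-/- lines peak in the first bin, with 43.96% and 42.1% of reads on the 5' strand, whereas 53BP1-deficient lines B and C have 3.71% and 2.46% there and rise past 100 nt.

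Some distances were frequent in both 53BP1-deficient lines and others in 1 of them. In bins of 10 nt the 5' strand stopped 120 to 129 nt inside in 13.1% of reads of line B and 22.95% of line C, against 0.786% and 1.58% in Lig4-/- lines A and B. Those 160 to 169 nt inside held 21.9% and 13.3%, against 2.00% and 3.73%. The bin of 130 to 139 nt was lower than both in each 53BP1-deficient line, at 5.80% and 7.79%. Line C had a further maximum from 140 nt to under 150 nt, at 13.95%, where line B held 3.01%. Line B in turn held 13.0% from 170 to 179 nt, about as much as from 120 to 129 nt, and line C 5.94%. Single positions in the shared bins were frequent in both lines. The highest mean share without 53BP1 was at 123 nt, with 4.28% in line B and 6.19% in line C against 0.0109% and 0.361% in Lig4-/- lines A and B. The second was at 168 nt, with 5.66% and 4.47% against 0.00937% and 0.0336%. The position at 180 nt came next and rested on line C, at 6.80%, with 1.56% in line B.

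The preferred position of Lig4-/- ends, 2 nt inside, was nearly empty without 53BP1. It held 19.3% and 19.2% of Lig4-/- reads and 0.917% and 0.886% of reads of 53BP1-deficient lines B and C, so all lines of a genotype agreed closely there. The outermost position, with no loss from the 5' strand, held 7.24% and 6.11% against 2.17% and 1.39%, a smaller proportional gap. The position at 9 nt held 4.66% and 4.25% against 0.120% and 0.00393%.

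The 3' strand, which 5' resection leaves in place, was shortened to a like extent. At least 100 nt of it were missing in 16.6% and 16.1% of Lig4-/- reads and in 83.2% and 84.9% of reads of 53BP1-deficient lines B and C. Both strands had lost 100 nt or more in 81.3% and 81.2% of 53BP1-deficient reads, against 15.97% and 15.3%. The latter shares lay 0.707 points apart in the Lig4-/- lines and closer in the 53BP1-deficient lines. The 3' strand stopped between 100 and 150 nt inside in 37.3% and 36.9% of reads of 53BP1-deficient lines B and C, which lay closer together than the same class of the 5' strand. Ends that had kept the outermost nucleotide on at least one strand held 19.1% and 16.3% in Lig4-/- lines and 2.66% and 1.40% in 53BP1-deficient lines.

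Among the listed ends, those with a 5' strand shortened by 10 nt or more and a nearly complete 3' strand were rarer without 53BP1. No listed end had lost more than 207 nt from the 5' strand, so ends cut back further are not counted here. Ends with 10 nt or more lost from the 5' strand and under 10 nt from the 3' strand held 8.79% and 8.19% of reads in Lig4-/- lines A and B, and 0.438% and 0.334% in 53BP1-deficient lines B and C. As a share of resected ends they held 14.9% ± 1.08 against 0.399% ± 0.0792 (SD, n = 2 lines each). The smallest gap of 13.7 points stood against 1.53 points between lines of a genotype. This class was defined after its values were seen and was not tested.

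**Figure D2:**
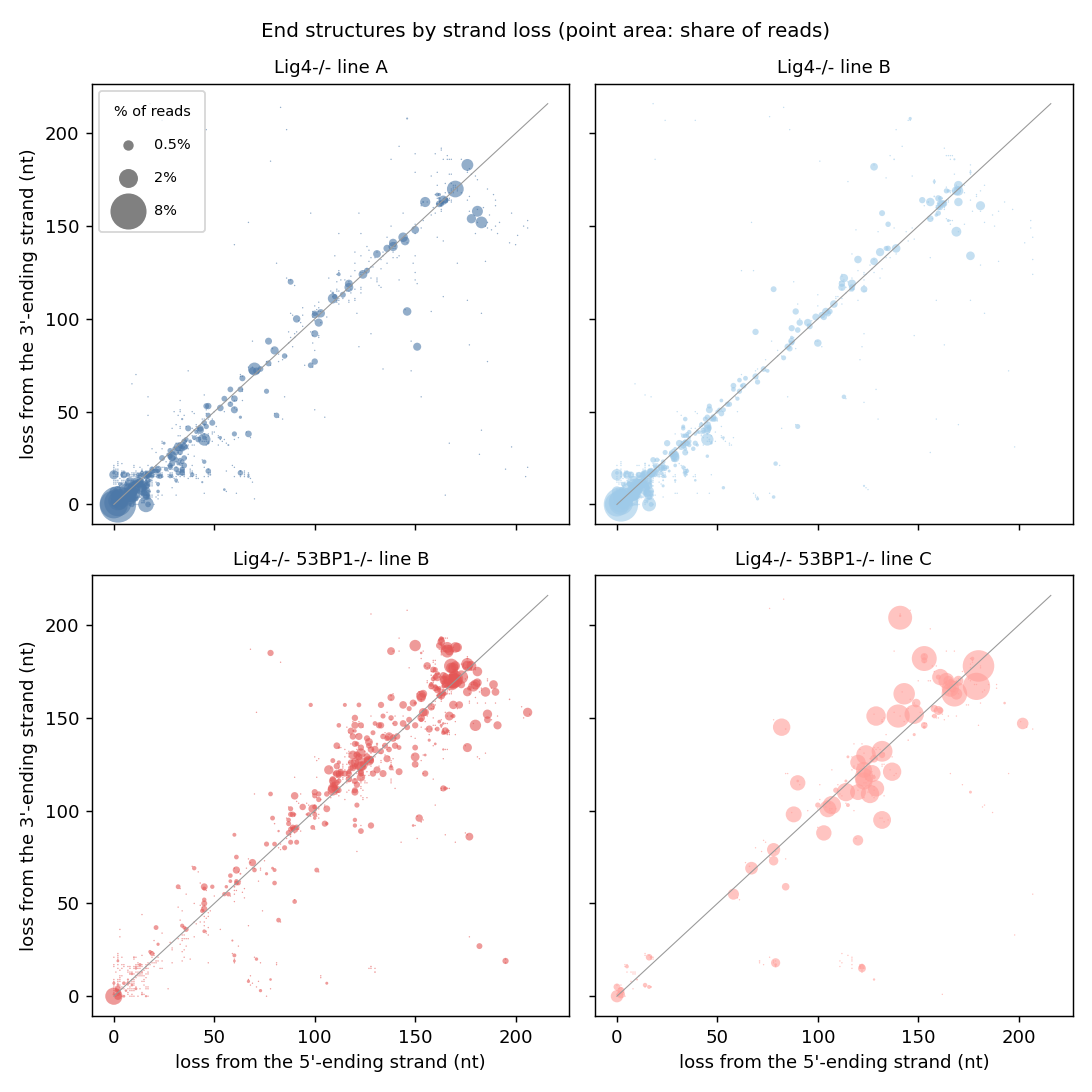
Loss from the 5' strand (horizontal axis, nt) against loss from the 3' strand (vertical axis, nt) for every listed structure of each line, with point area in proportion to its share of reads. Points on the diagonal are blunt, those above it are 5' overhangs and those below it are 3' overhangs. Lig4-/- points crowd at the origin and 53BP1-deficient points lie past 100 nt on both axes, where 81.3% and 81.2% of their reads are.

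The overhangs of the remaining ends differed as well. Classes were tested among resected ends and among near ends. Resected ends of the genotypes lay at different distances, so the shares at 10 to 99 nt and at 100 nt or more are given beside those tests. Among resected ends, 5' overhangs of 5 nt or more rose by 26.3 points without 53BP1. They held 6.81% of these reads in Lig4-/- line A (6.70 to 6.93), 13.7% in Lig4-/- line B (13.4 to 13.9), 38.8% in 53BP1-deficient line B (38.6 to 38.9) and 34.3% in line C (34.1 to 34.6). The genotypes did not overlap: their nearest lines were 20.7 points apart, and lines of 1 genotype at most 6.84 points. The difference was 31.9 points between the lines without the shNT tag and 20.7 points between those with it. At 10 to 99 nt these overhangs held 4.48% and 8.46% in Lig4-/- lines A and B against 41.6% and 52.8% in 53BP1-deficient lines B and C. At 100 nt or more they held 11.9% and 27.4% against 38.3% and 32.0%, where the nearest lines of the genotypes were 4.57 points apart, less than the 15.5 points between the Lig4-/- lines. For this cutoff, the separation beyond the spread between lines was thus seen at 10 to 99 nt and not at 100 nt or more. For 5' overhangs of 10 nt or more, which were not tested, it was the other way round. Their smallest gap was 20.9 points at 10 to 99 nt, against 26.7 points between lines of a genotype. At 100 nt or more it was 11.5 points against 10.3 points.

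The 5' overhangs of 10 nt or more did not overlap between genotypes, and the shorter ones did. Those of 20 nt or more held 0.535% and 2.30% of resected reads in Lig4-/- lines A and B, and 9.80% and 18.8% in 53BP1-deficient lines B and C. Those of 10 nt or more held 1.42% and 4.76% of resected reads in Lig4-/- lines A and B, and 22.7% and 26.6% in 53BP1-deficient lines B and C. Those of 5 to 9 nt overlapped between genotypes, at 5.39% and 8.89% against 16.1% and 7.78%, with 53BP1-deficient line C below Lig4-/- line B. Those of 1 to 4 nt overlapped as well, at 14.1% and 15.97% against 22.1% and 5.81%. The median 5' overhang of resected ends was 3 and 4 nt in the Lig4-/- lines and 8 and 11 nt in the 53BP1-deficient lines.

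Blunt ends fell by 6.97 points among resected ends. They held 14.4% and 13.5% in Lig4-/- lines A and B, and 7.72% and 6.23% in 53BP1-deficient lines B and C, with a smallest gap of 5.75 points against 1.49 points between lines of a genotype. Counting each structure once in place of its reads left a difference of -2.78 points and no call (largest adjusted Fisher's exact p = 0.441). Within distance the fall did not exceed the spread between lines. At 10 to 99 nt blunt ends overlapped, at 5.50% and 12.3% in Lig4-/- lines A and B against 8.71% and 0.0285% in 53BP1-deficient lines B and C. At 100 nt or more they held 34.1% and 16.5% against 7.58% and 7.02%, where the smallest gap of 8.92 points was below the 17.6 points between the Lig4-/- lines.

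The 3' overhangs of resected ends did not separate the genotypes beyond the spread between lines. They held 64.7% and 56.9% in Lig4-/- lines A and B, 31.4% in 53BP1-deficient line B and 53.6% in line C. All 4 pairs lay on the same side, but the smallest gap of 3.29 points was well within the 22.2 points between the 53BP1-deficient lines. Between the lines without the shNT tag the difference was -33.3 points and between those with it -3.29 points. Without 53BP1-deficient line C it was -29.4 points and was called. Line C was also the only line of run 6, so line and run cannot be told apart here. The long 3' overhangs of 10 nt or more, the tails that resection exposes, had no common direction: they held 22.2% and 13.4% of resected reads in Lig4-/- lines A and B and 18.8% and 21.6% in 53BP1-deficient lines B and C, so both 53BP1-deficient lines lay between the Lig4-/- lines. Without Lig4-/- line A the difference was 6.81 points and was called.

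The shares of 3' overhangs also depended on distance. Among ends with 10 to 99 nt lost from the 5' strand, 3' overhangs held 77.7% and 63.1% in Lig4-/- lines A and B, and 23.1% and 25.7% in 53BP1-deficient lines B and C, which there agreed closely. The 5' overhangs held 16.8% and 24.6% against 68.2% and 74.3%. Only 40612 reads of 53BP1-deficient line B and 14025 of line C lay in this range, the latter in 53 structures. Among ends with 100 nt or more lost, 3' overhangs held 36.0% and 40.5% against 32.6% and 57.2%, and 5' overhangs 29.9% and 43.0% against 59.8% and 35.8%, so that the genotypes overlapped for both. An overhang of 10 nt or more on either side was carried by 21.5% and 26.8% of these far reads in Lig4-/- lines and by 42.5% and 46.5% in 53BP1-deficient lines. By side, far 5' overhangs of 10 nt or more held 0.832% and 11.1% against 22.6% and 23.6%, and far 3' overhangs of that size overlapped between genotypes, at 20.7% and 15.6% against 19.9% and 22.96%. Within that class, those of 10 to 19 nt held 0.0639% and 3.01% against 7.98% and 17.4%. Far 3' overhangs of 20 nt or more went the other way, at 20.6% and 12.6% against 11.9% and 5.51%. Neither overlapped, but the smallest gaps of 4.96 and 0.682 points were below the 9.47 and 8.03 points between lines of a genotype. The longer 3' overhangs of far ends thus did not shift in a common direction. The class of either side was chosen after its values were seen and has no test.

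**Figure D3:**
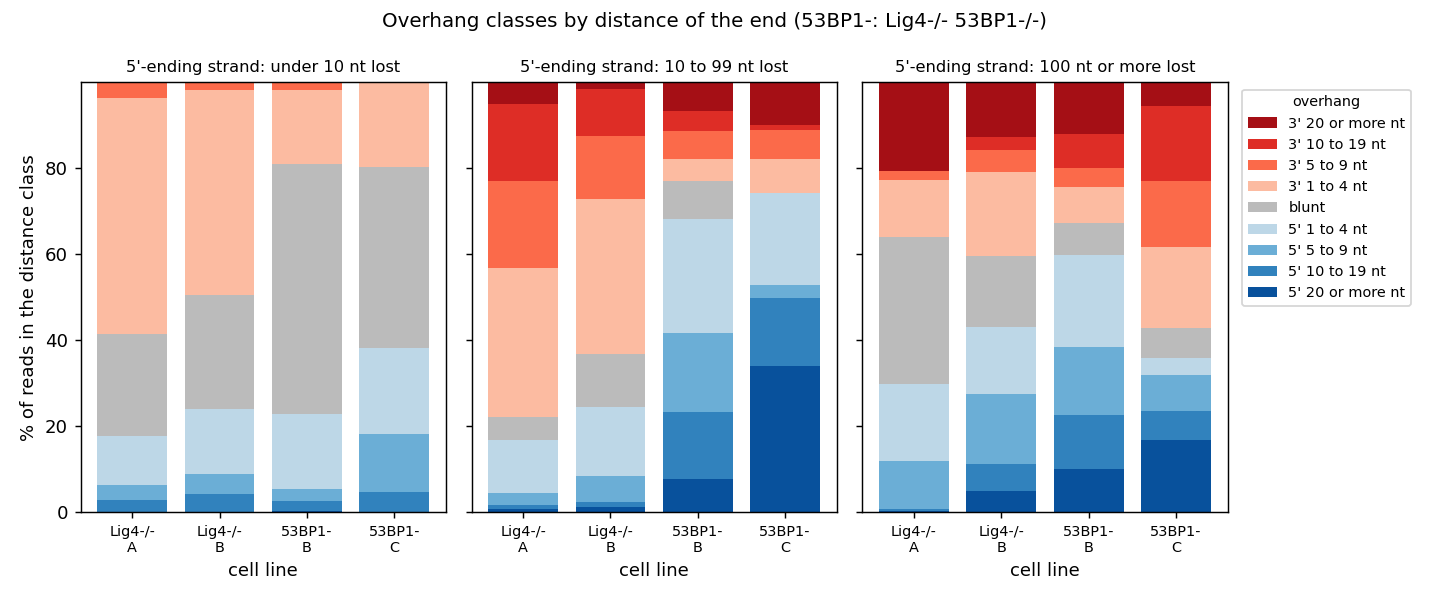
Percent of reads in each overhang class (stacked bars, vertical axis) for each line (horizontal axis), within ends whose 5' strand lost under 10 nt, 10 to 99 nt, or 100 nt or more. In the middle panel 3' overhangs make up 77.7% and 63.1% of the Lig4-/- bars and 23.1% and 25.7% of the 53BP1-deficient bars, whereas in the right panel the genotypes overlap.

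The few ends that stayed near the break without 53BP1 differed in form from those of Lig4-/- cells. Near ends, with under 10 nt lost from the 5' strand, numbered 12528 reads in 53BP1-deficient line B and 3126 in line C. Their share of 3' overhangs fell by 34.7 points. It was 58.5% in Lig4-/- line A (58.2 to 58.7), 49.4% in Lig4-/- line B (48.99 to 49.8), 18.99% in 53BP1-deficient line B (18.3 to 19.7) and 19.6% in line C (18.2 to 21.01), a smallest gap of 29.8 points against 9.04 points between lines of a genotype. It differed by -39.5 points between the lines without the shNT tag and by -29.8 points between those with it. The fall lay in 3' overhangs of 1 to 4 nt, at 54.9% and 47.7% against 17.2% and 19.6%.

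What remained in their place was the end with no loss on either strand. It made up 12.1% and 9.43% of near reads in Lig4-/- lines A and B, and 54.6% and 42.2% in 53BP1-deficient lines B and C. Other blunt near ends held 11.6% and 17.0% against 3.52% and none of the listed structures. When ends with no loss were set aside, 3' overhangs still held 66.5% and 54.6% of the near reads that were left in Lig4-/- lines and 41.8% and 33.9% in 53BP1-deficient lines. The fall was not seen over structures counted once, where the difference was 0.353 points (largest adjusted Fisher's exact p = 1), so it lay in the reads of abundant structures. Without the leading structure of each table it was -11.9 points and the 4 pairs no longer lay on the same side. The share of near ends with a complete 3' strand was 34.8% and 29.9% against 66.5% and 42.5%, on the same side in all pairs but with a smallest gap of 7.71 points within the 23.99 points between the 53BP1-deficient lines. Without 53BP1-deficient line B the difference was 10.2 points and without line C 34.2 points, and either was called. With ends of no loss set aside the difference turned to -10.8 points, an alternative added after seeing the data.

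Individual structures were tested next, to see which ends carried these shifts. At least 10 reads in all were held by 1113 structures, and each was tested by Fisher's exact test in all 4 pairs, adjusted over 4452 tests. Of these structures, 241 were lower in both 53BP1-deficient lines than in both Lig4-/- lines with every adjusted p under 0.05 (21.7% of those tested), and 20 were higher (1.8%). The lower ones held 68.3% and 67.9% of reads in Lig4-/- lines A and B and 4.14% and 2.29% in 53BP1-deficient lines B and C. The higher ones held only 5.25% and 18.4% of 53BP1-deficient reads. Leaving out a line leaves fewer pairs to pass. The number of higher structures was then 391 without 53BP1-deficient line C and 112 without 53BP1-deficient line B. It was 31 without Lig4-/- line B and 23 without Lig4-/- line A. That of lower ones was 291, 256, 391 and 367 in the same order. Without 53BP1-deficient line C, higher structures thus outnumbered lower ones, so the excess of lower structures was not seen in every set of lines. Structures that were lower in both 53BP1-deficient lines accounted for most Lig4-/- reads, whereas most 53BP1-deficient reads lay outside the structures that were higher in both.

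The called structures were split by position, as the shares of near and far ends above were. Both come from the same reads, so the split gives no separate support for the shift. Near the break 91 of 120 tested structures were lower and 0 were higher. At 10 to 99 nt 144 of 475 were lower and 1 was higher, and at 100 nt or more 6 of 518 were lower and 19 were higher. The lower structures had a median 5'-strand loss of 13 nt, and the higher ones of 152.5 nt. By kind of end, 139 of 568 tested 3' overhangs were lower (24.5%), 86 of 485 5' overhangs (17.7%) and 16 of 60 blunt ends (26.7%), around the background of 21.7%.

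The 5 largest falls were all within 7 nt of the break. The 3' overhang of 2 nt at a complete 3' strand, the leading structure of both Lig4-/- lines, held 9.07% in line A (8.97 to 9.16), 8.06% in line B (7.91 to 8.21) and 0.379% in 53BP1-deficient line B (0.358 to 0.400), and was not listed with 2 reads or more in line C. The 3' overhang of 1 nt, with the same 5' stop 2 nt inside, held 5.05% and 4.08% against 0.0749% and 0.447%. The blunt end 2 nt inside held 2.51% and 3.68% against 0.0616% in 53BP1-deficient line B, and the blunt end 7 nt inside 1.90% and 2.35% against 0.0672%, and neither was listed in line C. These 3 ends with the 5' stop at 2 nt were thus all lower, whichever of the 3 outermost nucleotides ended the 3' strand.

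The end with no loss on either strand kept the largest share of reads in the 53BP1-deficient lines among these 5. It held 5.32% in Lig4-/- line A (5.24 to 5.39), 3.97% in Lig4-/- line B (3.87 to 4.08), 2.02% in 53BP1-deficient line B (1.98 to 2.07) and 1.04% in line C (0.982 to 1.09). It ranked behind 1 other structure in Lig4-/- line A, behind 2 others in Lig4-/- line B and first in 53BP1-deficient line B. In 53BP1-deficient line C it was only at rank 34. All 4 pairs passed (largest adjusted Fisher's exact p = 3.54e-283), with the nearest lines of the genotypes 1.95 points apart and lines of 1 genotype at most 1.34 points.

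The 5 largest rises were 100 nt or more inside and nearly absent with 53BP1. A 3' overhang of 12 nt whose 5' strand stopped at 179 nt held 0.740% in 53BP1-deficient line B and 5.06% in line C, and had 2 reads in Lig4-/- line B and none listed in line A. The others were a 3' overhang of 5 nt with the 5' stop at 123 nt (0.481% in line B and 2.38% in line C), a 5' overhang of 11 nt at 161 nt (0.459% and 1.83%), a 5' overhang of 6 nt at 120 nt (0.544% and 1.63%) and a 3' overhang of 10 nt, also at 120 nt (0.341% and 1.72%). Each had at most 4 reads in any Lig4-/- table. All 5 were higher in line C than in line B, and the largest adjusted Fisher's exact p among them was 3.93e-152.

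**Figure D4:**
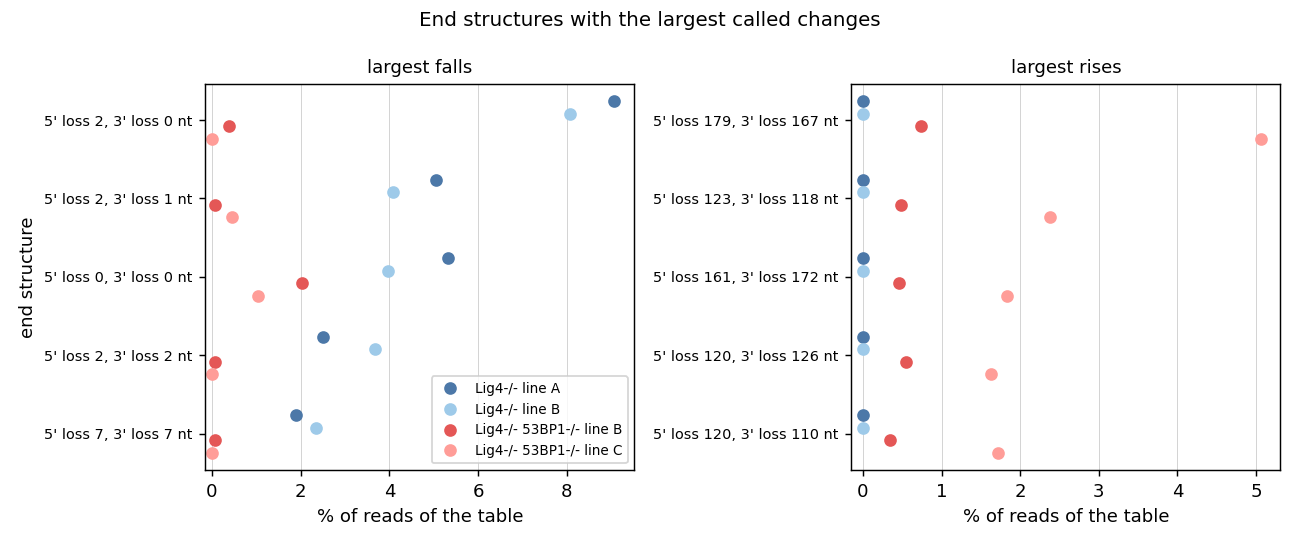
Percent of the reads of each table (horizontal axis) in the 5 structures with the largest called falls and the 5 with the largest called rises (vertical axis, named by the loss of each strand), 1 point per line. In the left panel both Lig4-/- lines lie above both 53BP1-deficient lines, and in the right panel the 53BP1-deficient lines are apart from each other, at 0.740% and 5.06% for the first rise.

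The 20 higher structures shared some strand stops. Of them 13 were 5' overhangs (2.68% of the 485 tested), 6 were 3' overhangs (1.06% of 568) and 1 was blunt (1.67% of 60), near the background of 1.8%. Of the 20, 12 were listed in neither Lig4-/- table. The 3' strand stopped at 170 nt in 5 of the 20, out of 10 structures tested with that stop. All 5 were 5' overhangs, with 5' stops at 156, 164, 165, 166 and 167 nt, and none was listed in a Lig4-/- table. The one at 164 nt, a 5' overhang of 6 nt, held 0.334% of line B and 1.72% of line C, and the one at 165 nt held 0.109% and 0.671%. The other three had at most 239 reads in any table. Another 2 of the 20 shared a 3' stop at 172 nt, next to each other at 160 and 161 nt on the 5' strand. Shared stops were noticed after the values were seen and have no test.

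The other higher structures ranged widely in the 53BP1-deficient lines. The only one under 100 nt, a 5' overhang of 10 nt at 88 nt, held 0.185% of line B and 1.74% of line C and was listed in neither Lig4-/- table. The only blunt one, at 128 nt, held 0.223% and 0.404%, against 3 reads in Lig4-/- line A and none listed in line B. A 5' overhang of 12 nt at 160 nt held 0.222% and 0.172%, a like share in both lines. In contrast, the 5' overhang of 8 nt at 123 nt held 0.613% of line B and 0.0157% of line C. The 3' overhang of 5 nt at 106 nt, with 1083 reads in line B and 5 in line C, passed narrowly (largest adjusted Fisher's exact p = 0.0489).

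Far ends that were lower without 53BP1 numbered 6. A 5' overhang of 2 nt at 117 nt held 0.432% and 0.460% of reads in Lig4-/- lines A and B, and had 4 reads in 53BP1-deficient line B and none listed in line C. The blunt end at 162 nt held 0.310% and 0.414%, against 0.212% in 53BP1-deficient line B and none listed in line C. Loss past 100 nt was therefore not limited to 53BP1-deficient cells, and some far ends were more frequent with 53BP1.

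Several abundant far ends were nearly confined to 1 line. The leading structure of 53BP1-deficient line C, a 3' overhang of 2 nt with the 5' stop at 180 nt, held 6.80% of its reads (6.66 to 6.94) and was listed in no other table. Another, a 3' overhang of 5 nt at 168 nt, held 4.44% and had 2 reads in line B. In the other direction, 5' overhangs of 1 nt at 170 nt and 168 nt held 1.68% and 1.60% of line B, against 3 reads and none listed in line C. A 5' overhang of 10 nt, also at 168 nt, held 1.45% against none listed. At 168 nt the lines therefore had like shares of 5' stops, 5.66% and 4.47%, made of different structures.

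The 53BP1-deficient lines also spread their reads over different numbers of structures. To reach 50% of reads took 33 structures in Lig4-/- line A, 41 in Lig4-/- line B, 76 in 53BP1-deficient line B and 15 in 53BP1-deficient line C. The 10 most abundant structures held 32.3%, 28.8%, 14.2% and 39.4% in that order. Line C listed 320 structures and Lig4-/- line B 714 at nearly the same number of reads, while thinning the other tables to 127083 reads gave expected numbers of 604 for Lig4-/- line A and 687 for 53BP1-deficient line B. 53BP1-deficient line C, the line of run 6, thus stood apart from all others in its few structures.

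**Figure D5:**
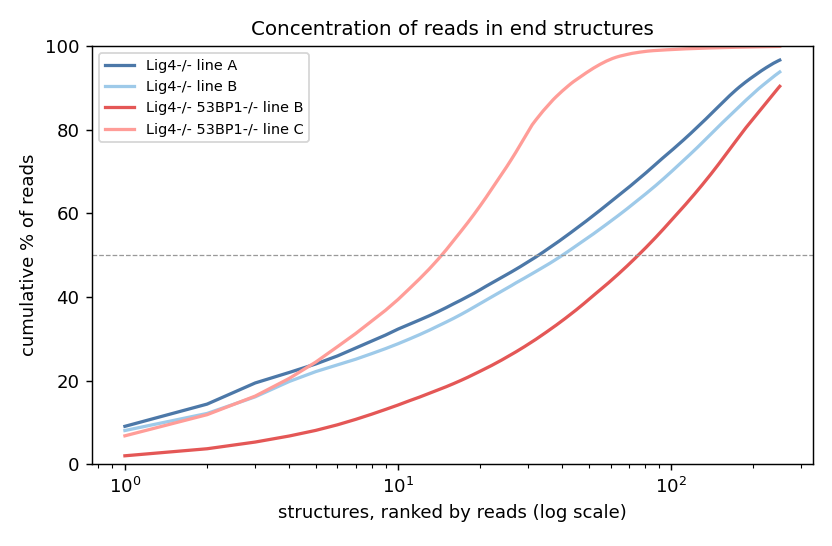
Cumulative percent of reads (vertical axis) over structures ranked by reads (horizontal axis, log scale), 1 curve per line, with a dashed line at 50%. 53BP1-deficient line C reaches 50% with 15 structures and 53BP1-deficient line B with 76, on either side of the Lig4-/- lines at 33 and 41.

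Lines of a genotype shared structures to different degrees. Lig4-/- lines A and B shared 442 structures, 49.4% of those of line A and 61.9% of those of line B, which held 83.3% and 77.3% of their reads. 53BP1-deficient lines B and C shared 118, 11.7% and 36.9% of their structures, with 17.7% and 39.4% of their reads. Sharing did not follow genotype for 53BP1-deficient line B. It shared 374 structures with Lig4-/- line A and 321 with Lig4-/- line B, holding 52.8% and 36.5% of its reads. 53BP1-deficient line C shared 70 and 69 with these lines, holding 16.9% and 16.9% of its reads. Among structures 100 nt or more inside, the Lig4-/- lines shared 74, holding 60.9% and 35.5% of the far reads of lines A and B, and the 53BP1-deficient lines shared 87, holding 17.6% and 40.5%. Of 1904 structures listed in any table, 45 were listed in every table, and 50 in both 53BP1-deficient tables and in no Lig4-/- table. These 50 held 2.97% of reads of 53BP1-deficient line B and 16.1% of line C. In reverse, 193 were listed in both Lig4-/- tables and in no 53BP1-deficient table. They held 13.4% and 11.4% of reads of Lig4-/- lines A and B.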

How the data were processed

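Libraries had been made by single-stranded DNA ligation, bisulfite treatment and PCR and sequenced on a MiSeq, per the labels' protocols. The authors deposited, for each line, a table of raw read counts per end structure that pools its libraries and is not normalised. Which aligner, filters and build were used is not given in the sources used here. In each table the position was read as the stop of the strand with the 5' terminus and the position minus the overhang as that of the other. The sign of overhangs follows the KpnI control, whose known 4-nt 3' overhang has the value 4 in 99.2% of its 307425 reads. Loss is the position minus 2, the lowest position, so another origin would shift all losses alike. Products shorten as loss grows, and whether PCR favoured them was not tested.

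Shares, exact intervals and Fisher's exact tests came from scipy 1.17.1 and numpy 2.4.6, run from Python 3.11.15 with pandas 2.3.3. Plots used matplotlib 3.10.9. A structure not listed counted as 0 reads. Line values were averaged with equal weight. The calculation was tested on simulated reads with known changes and no spread between lines beyond counting. The rule for calling classes was not part of that test. The members, classes and tests were chosen with earlier results of these data known. Named structures are the 3 most abundant of each table, the 5 largest called rises and falls, the 3 largest gaps between the 53BP1-deficient lines in each direction, and the 3 leading 5' positions of each genotype. Structures with shared stops, the other called far ends and classes marked as such were chosen after their values were seen. Alternatives counted structures once, changed the fewest reads or the loss threshold, left out leading structures or lines, read loss from the other strand, called 1-nt overhangs blunt, or kept to run 4 or to lines alike in the shNT tag.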

Additional observations from a re-analysis of the deposited data

Results flagged for a closer look

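The share of 3' overhangs of 10 nt or more among resected ends went in opposite directions in the pairs of lines matched for the shNT tag. Between the lines without the tag it differed by -3.34 points (53BP1-deficient line B minus Lig4-/- line A), and between those with it by 8.20 points (53BP1-deficient line C minus Lig4-/- line B). With 1 line of each kind, the difference between the pairs was not tested.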

How the results depend on the processing

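Differences are in points, 53BP1-deficient minus Lig4-/-. Of 150 recomputed values, 123 stayed on their side of the threshold or, where no call could be made with 1 line of each genotype, moved by less than the spread between lines. Among these, long 3' overhangs in lines without the shNT tag changed sign to -3.34. With structures counted once, blunt resected ends gave -2.78, 3' overhangs of near ends reversed to 0.353 and long 3' overhangs gave -0.612. Without the most abundant structures, ends past 150 nt gave 30.3 and 3' overhangs of near ends -11.9, and neither was called. With ends of no loss left out, added after seeing the data, complete 3' strands among near ends gave -10.8.
Leaving out a line in turn, 3' overhangs of resected ends ranged from -29.4 to -7.18, long 3' overhangs from -1.96 to 6.81 and complete 3' strands of near ends from 10.2 to 34.2. Called structures ranged from 23 to 391 (higher) and from 256 to 391 (lower), with fewer pairs to pass.
Run 4 only, which leaves out 53BP1-deficient line C, gave -29.4 for 3' overhangs of resected ends, 34.2 for complete 3' strands and 391 higher structures. Without the shNT tag, far ends gave 66.8, long 5' overhangs 31.9, and called structures 436 higher and 407 lower; with it, 70.6, 20.7, 114 and 389. No paired analysis was possible because the tables pool the libraries and the labels pair no lines. Single libraries could not be separated, and 2 lines of each genotype limit every comparison.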
